A study of Homo sapiens with 2 samples.

Results

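The beta-catenin destruction complex is a cytoplasmic assembly that marks beta-catenin for breakdown. It was described here through 10 genes chosen by symbol from published knowledge of the pathway, the beta-catenin gene CTNNB1, the scaffolds APC and AXIN1, the kinases GSK3A, GSK3B and CSNK1A1, the ubiquitin ligase adaptor BTRC, the tankyrase TNKS and the Dishevelled genes DVL1 and DVL2. All 10 had a probe set whose annotation named that gene alone, 1 each, among 33297 probe sets and 18417 named genes on the array. The rule uses gene symbols and no measured value, though the genes were chosen with earlier results of these data known.

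The study worked with SW480, a long-established cell line from a human colorectal adenocarcinoma. Cells stably transfected with the TFAP2E coding sequence in the pTarget vector were compared with cells carrying that vector empty. TFAP2E encodes AP-2 epsilon, an AP-2 family transcription factor. Both groups were kept under Geneticin, an antibiotic that kills cells without the vector, for several weeks, and single clones were picked, per the labels' protocols. Total RNA was labelled with biotin and put on 1 array per group, and it is not stated how many clones went into each. A clone's own traits and TFAP2E therefore cannot be told apart in these data. No gene has a replicate, an error or a test.

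In the textbook pathway, APC and axin hold beta-catenin beside casein kinase 1 alpha and glycogen synthase kinase 3, which phosphorylate it in turn. The ligase adaptor beta-TrCP then recognises the phosphorylated protein, which is ubiquitinated and degraded. Wnt signals act through Dishevelled to stop this, so that beta-catenin enters the nucleus and works with TCF and LEF factors. Most colorectal cancers lose APC function early, and SW480 cells carry a truncating APC mutation and accumulate beta-catenin protein. This control runs at the protein level, and the arrays measured RNA.

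Values are log2 RMA levels, called those of TFAP2E-labelled cells and of vector cells after the labels of the arrays. Differences are TFAP2E-labelled minus vector cells on the log2 scale. A gene was compared when its higher value reached 5.55, the middle value of the deposited table, as 11548 genes did. The probe set of TFAP2E did not show the introduced gene, at 6.81 in TFAP2E-labelled cells and 6.77 in vector cells (difference 0.04). Whether that probe set detects the introduced sequence was not tested, so that directions rest on the labels. The differences of all compared genes centred on a median of 0.04 with an SD of 0.219, and their central 95% ran from -0.37 to 0.47. Of these genes 59.2% read higher and 39.5% lower in TFAP2E-labelled cells. Of 11 colorectal epithelium markers 8 were above the filter, among them EPCAM (11.1 and 11.2 in TFAP2E-labelled and vector cells) and KRT8 (12.1 and 12.3), while KRT20, CDH17 and CEACAM5 were dim on both arrays. The microvillus protein villin (VIL1), the only marker of that list past 2-fold, read 6.22 in TFAP2E-labelled cells and was dim at 4.94 in vector cells (difference 1.28). Of the markers of other cells on the array, 7 of 10 for fibroblasts, 6 of 8 for endothelium and 6 of 9 for leukocytes were dim, with the leukocyte antigen PTPRC at 2.74 on both arrays. The widest differences among those above the filter were those of CD68, a macrophage marker, at 6.60 in TFAP2E-labelled cells and 6.02 in vector cells (difference 0.57, above the central 95% of all genes), and of ACTA2, a fibroblast marker, at 0.33. Their part in the results was not tested.

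All 10 destruction complex genes were above the filter on both arrays, and none differed by 2-fold or by 1.5-fold. At 2-fold, 0.199% of all compared genes were called (0.0866% higher and 0.113% lower), and at 1.5-fold 1.5% were (0.892% higher and 0.606% lower), so that a count of 0 among 10 genes is near this background. In TFAP2E-labelled cells 6 genes read lower, 3 higher and 1 equal, where 39.5% of all genes read lower and 59.2% higher. Centring each array on its median made the members 5 lower and 5 higher, with the median of all genes at 0.07. Quantile normalization, and removal of the trend of the difference with level, each made them 7 lower and 3 higher. Their differences ran from -0.31 to 0.16 with a median of -0.04, against 0.04 over all genes. No member lay outside the central 95% of all differences, where 5.01% of all genes lay. Closer to 0 than 1 standard deviation of all genes were 8 of the 10, all but CTNNB1 and APC, both on the lower side. Most of all compared genes were that close too, since their median absolute difference was 0.128 against an SD of 0.219. The median absolute difference of the members was 0.094.

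CTNNB1 encodes beta-catenin, the substrate of the complex and, with cadherins, a part of cell junctions. It read 11.48 in TFAP2E-labelled cells and 11.78 in vector cells. Its level was the lower one in the TFAP2E-labelled cells, 1.24-fold lower (log2 difference -0.31), the widest difference of the 10 genes. Of all 11548 compared genes, 492 had a lower difference, which is 4.26% of them. Genes with high levels varied less, so CTNNB1 was also set beside the 500 compared genes nearest to it in mean level, which ranged from 10.02 to 12.90. Their central 95% ran from -0.33 to 0.37, and CTNNB1 remained inside it, with 15 of the 500 below it.

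Of the scaffolds, APC read lower and AXIN1 stood near the median of all genes. APC, the tumour suppressor whose protein binds beta-catenin and axin, read 6.22 in TFAP2E-labelled cells and 6.44 in vector cells. That is 1.17-fold lower (log2 difference -0.22), with 8.24% of all genes lower still. The probe set does not show whether an APC transcript carries the mutation. AXIN1, the scaffold that limits how much complex forms, read 7.07 in TFAP2E-labelled cells and 7.03 in vector cells, a difference of 0.05 that almost equals the median of all genes.

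The kinases lay close to 0. CSNK1A1, casein kinase 1 alpha, which places the priming phosphate on beta-catenin, read 10.3 on both arrays, and its deposited values were identical to the last digit. Identical pairs were not rare in the deposited table, with 1379 of the 33297 probe sets (4.14%) and 159 compared genes (1.38%), so that the exact 0 of CSNK1A1 is no measure of precision. GSK3A and GSK3B are the glycogen synthase kinase 3 genes, and both proteins can phosphorylate beta-catenin once it is primed. GSK3A read 8.53 in TFAP2E-labelled cells and 8.55 in vector cells, a difference of -0.02 whose sign turned with that centring. GSK3B read 8.79 in TFAP2E-labelled cells and 8.66 in vector cells, 1.10-fold higher (log2 difference 0.13). Both differences are smaller than the standard deviation of all genes.

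BTRC encodes beta-TrCP, the substrate-recognising part of the SCF ubiquitin ligase. It read 6.88 in TFAP2E-labelled cells and 6.95 in vector cells, a difference of -0.07. TNKS, a tankyrase that marks axin for breakdown through poly-ADP-ribose, read 6.97 in TFAP2E-labelled cells and 7.03 in vector cells, a difference of -0.06. Both factors of protein turnover thus read slightly lower in TFAP2E-labelled cells, by less than the SD of all genes.

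The Dishevelled genes, which carry the signal of the Wnt receptors to axin, lay on opposite sides of 0. DVL1 read 8.33 in TFAP2E-labelled cells and 8.17 in vector cells, 1.12-fold higher (log2 difference 0.16), the highest difference of the 10. DVL2 read 8.19 in TFAP2E-labelled cells and 8.31 in vector cells, 1.09-fold lower (log2 difference -0.12). Of all compared genes 73.2% lay below DVL1 and 18.6% below DVL2.

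**Figure D1:**
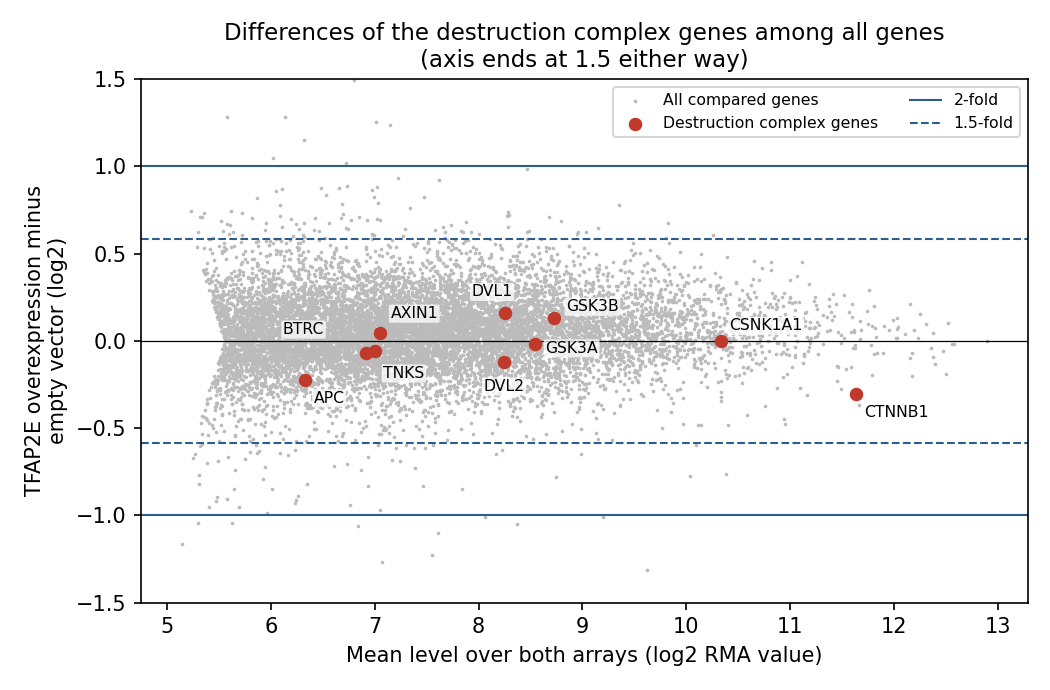
Difference between the arrays (TFAP2E overexpression minus empty vector, log2, vertical) against mean level over both arrays (log2 RMA value, horizontal) for all 11548 compared genes (grey) and the 10 destruction complex genes (red), with lines at 2-fold and 1.5-fold. The axis leaves out 4 genes beyond 1.5 either way; all 10 red points lie between the 1.5-fold lines, and CTNNB1 lies toward the lower edge of the genes with high levels.

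The regions ahead of the transcription starts were examined because an AP-2 factor was introduced. Promoter windows of RefSeq (GRCh38.p14), 250 bases before to 50 after a start, were found for 8 of the 10 genes, in 10 windows, and not for BTRC and TNKS. The consensus GCCNNNGGC, which AP-2 proteins are known to bind and which reads alike on both strands, occurred in 4 of the 8 genes, namely CTNNB1, AXIN1, GSK3A and DVL1. It occurred in 23.2% of all 35116 windows of this length, and in at least 1 window of 40.4% of the 9283 compared genes that had one. The windows of the members ranged from 40.0% to 82.7% in GC content, against a median of 58.7% over all windows and 68.7% over windows with the consensus. Below are the 200 bases before the start of the members with the widest differences on each side, CTNNB1 and APC on the lower and DVL1 and GSK3B on the higher side, each 5′ to 3′ on the strand of its gene, with the consensus in capitals. With this spacer of 3 bases CTNNB1 and DVL1 held the consensus, and APC and GSK3B did not. Only the first window of APC is printed. Whether the consensus goes with the direction of a difference was not tested. With a spacer of 4 bases CTNNB1 held no match, while DVL1 and the second window of APC did.
CTNNB1 (chr3:41199305-41199504, plus strand): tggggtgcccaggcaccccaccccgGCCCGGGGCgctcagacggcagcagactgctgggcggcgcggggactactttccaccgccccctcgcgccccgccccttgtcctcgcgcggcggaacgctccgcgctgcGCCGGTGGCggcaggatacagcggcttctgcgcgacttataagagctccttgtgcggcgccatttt
APC (chr5:112707298-112707497, plus strand): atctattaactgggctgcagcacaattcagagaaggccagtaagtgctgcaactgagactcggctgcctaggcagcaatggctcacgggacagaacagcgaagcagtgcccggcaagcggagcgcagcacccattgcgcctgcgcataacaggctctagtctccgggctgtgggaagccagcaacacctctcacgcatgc
DVL1 (chr1:1349419-1349618, minus strand): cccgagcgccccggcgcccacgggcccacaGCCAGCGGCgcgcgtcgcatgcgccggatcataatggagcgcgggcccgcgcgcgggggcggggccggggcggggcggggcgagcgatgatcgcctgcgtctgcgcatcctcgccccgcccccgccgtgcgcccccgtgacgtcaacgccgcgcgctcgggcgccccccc
GSK3B (chr3:120094448-120094647, minus strand): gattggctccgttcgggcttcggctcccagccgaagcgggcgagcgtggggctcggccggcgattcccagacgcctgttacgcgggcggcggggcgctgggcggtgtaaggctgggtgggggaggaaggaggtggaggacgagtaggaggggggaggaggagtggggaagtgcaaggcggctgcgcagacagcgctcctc

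CTNNB1 held the consensus at 2 places, GCCCGGGGC from base -175 and GCCGGTGGC from base -66, counted from the transcription start. DVL1 held GCCAGCGGC from base -170. In GSK3A, whose difference was -0.02, GCCGAGGGC began at base -67, and in AXIN1 GCCGCCGGC began at base 11 after the start. The second window of APC, at a start further along the gene, held no match with the spacer of 3 bases either. Genes with the consensus had a median difference of 0.04 (SD 0.201, n = 3754 genes) and compared genes without it one of 0.05 (SD 0.219). A match describes the letters alone, and binding was not measured.

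The genes beside each member on its chromosome were read as well, 10 compared genes on each side, because differences of neighbouring genes can go together. Around GSK3B on chromosome 3, 19 of 20 neighbours read higher in TFAP2E-labelled cells, with a median difference of 0.25. GSK3B at 0.13 was above 4 of them and below 16. GSK3B thus had the sign of most of its neighbours at a smaller size than most, and 68.6% of all compared genes lay below it. The part of the region in its difference was not tested. Around CTNNB1, also on chromosome 3 but elsewhere, 15 of 20 neighbours read higher and 4 lower, with a median of 0.10. CTNNB1 at -0.31 lay below 19 of its 20 neighbours. The neighbours of APC on chromosome 5 split evenly, 10 higher and 10 lower, with a median of 0.01, and 17 of the 20 lay above APC. For the other 7 members the neighbours' medians ran from -0.03 around GSK3A to 0.06 around TNKS. DVL1 lay above 17 of its 20 neighbours on chromosome 1, and DVL2 lay below 17 of its 20 on chromosome 17.

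**Figure D2:**
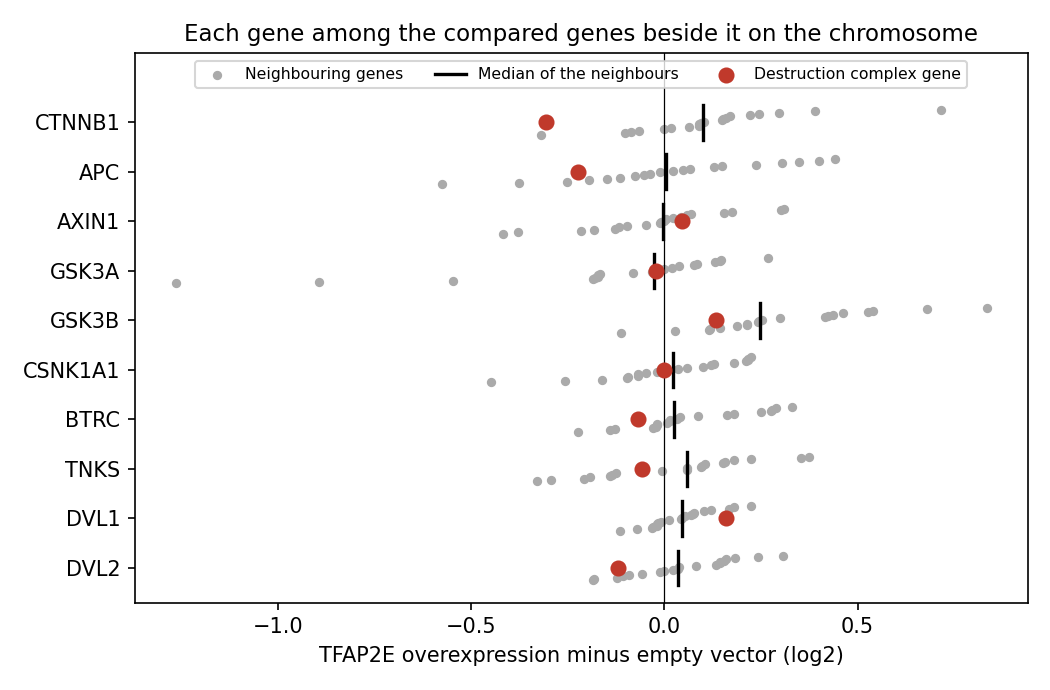
Difference between the arrays (TFAP2E overexpression minus empty vector, log2) of each destruction complex gene (red) and of the 20 compared genes nearest to it on its chromosome (grey), with the neighbours' median as a black bar. The neighbours of GSK3B sit mostly above 0 with a median of 0.25, and CTNNB1 sits 0.41 below the median of its own neighbours.

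Most close relatives of the members also lay near 0. Of 8 compared paralogs 4 read higher, 3 lower and 1 equal, with a median of 0.00. AXIN2, an axin that is itself induced by beta-catenin, read 9.52 in TFAP2E-labelled cells and 9.91 in vector cells (difference -0.40), below the central 95% of all genes. CSNK1G1, a casein kinase 1 gamma gene, had a difference of -0.18, and TNKS2, the other tankyrase, one of 0.12. CSNK1G2 differed by 0.07. FBXW11, the relative of BTRC, stood at 0.01, DVL3 at 0.05 and the casein kinase CSNK1D at -0.01. CSNK1A1L, a close copy of CSNK1A1 that may share its probes, was equal on both arrays at 5.63, and APC2 was dim. CSNK1E and, among junction genes, CTNND1 had only a probe set that carries several symbols, and were left out of the list counts and medians. Those probe sets differed by -0.03 and -0.12. CSNK1G3 and, among nuclear genes, TCF7 were not analysed here.

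Partners in the ligase and in the turnover of axin split around 0, with 5 of 9 compared genes higher, 4 lower and a median of 0.00. RNF146, the ubiquitin ligase that acts on axin after tankyrase, read 7.14 in TFAP2E-labelled cells and 6.87 in vector cells, the highest difference of this list at 0.27. RBX1, the RING subunit of SCF ligases, followed at 0.12. USP34, a deubiquitinase of axin, read 8.91 in TFAP2E-labelled cells and 9.16 in vector cells (difference -0.25). SKP1, the SCF linker, had a difference of -0.09 in one probe set and 0.10 in another.

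Other partners of the complex and subunits of protein phosphatase 2A, which can remove its phosphates, had a median near that of all genes. Of 13 compared genes 10 read higher, 2 lower and 1 equal, where 59.2% of all genes read higher, with a median of 0.06 against 0.04 over all genes. With quantile normalization these medians were 0.01 and 0.02. AMER1, a tumour suppressor that brings APC to the membrane, read 6.14 in TFAP2E-labelled cells and 5.85 in vector cells (difference 0.28). The phosphatase subunit PPP2R5B had a difference of 0.22. On the lower side stood AMER2 at -0.20, dim in TFAP2E-labelled cells, and the scaffold subunit PPP2R1A at -0.03.

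The lists downstream of the complex had lower medians than the complex itself. Of 14 compared nuclear partners of beta-catenin 10 read lower and 4 higher, where 39.5% of all genes read lower. Their median was -0.14. The Groucho co-repressors TLE2 and TLE3 were lowest. TLE2 read 5.74 in TFAP2E-labelled cells and 6.26 in vector cells (difference -0.52), and TLE3 read 8.21 in TFAP2E-labelled cells and 8.59 in vector cells (difference -0.38). The co-activator BCL9 at 0.26 and the beta-catenin inhibitor CBY1 at 0.25 were highest, CBY1 being dim in vector cells.

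Among cadherin and catenin genes of cell junctions, where beta-catenin has its other role, 3 of 4 compared genes read lower. Of all genes 39.5% read lower. The median of this list was -0.44, which was -0.17 under a filter at the 75th percentile that keeps only JUP and CTNNA1. CDH1, which encodes E-cadherin, read 6.38 in TFAP2E-labelled cells and 7.08 in vector cells, 1.63-fold lower (log2 difference -0.71). It was the only compared gene of the 6 wider lists past 1.5-fold on the lower side, where 0.606% of all genes were, and none of these lists' genes was past it on the higher side, where 0.892% were. CDH3, P-cadherin, stood at -0.51 and JUP, plakoglobin, a close relative of beta-catenin, at -0.37. CTNNA1, alpha-catenin, which links beta-catenin to actin, read 10.9 in TFAP2E-labelled cells and 10.8 in vector cells (difference 0.03).

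Of 13 compared target genes of beta-catenin 11 read lower and 2 higher, where 39.5% of all genes read lower. Their median was -0.28. Below the central 95% of all genes lay 4 of the 13, where 5.01% of all genes lay outside it on either side. The lowest were ASCL2, a stem cell transcription factor, at -0.54 and APCDD1, a Wnt inhibitor, at -0.49, and the highest were MYC at 0.24 and NKD2 at 0.07. AXIN2 and LEF1 stand in 2 of these lists each. The lists were drawn up with earlier results of these data known, and their targets had already been seen to lie low. Whether the lower CTNNB1 level and the lower targets are related was not tested.

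**Figure D3:**
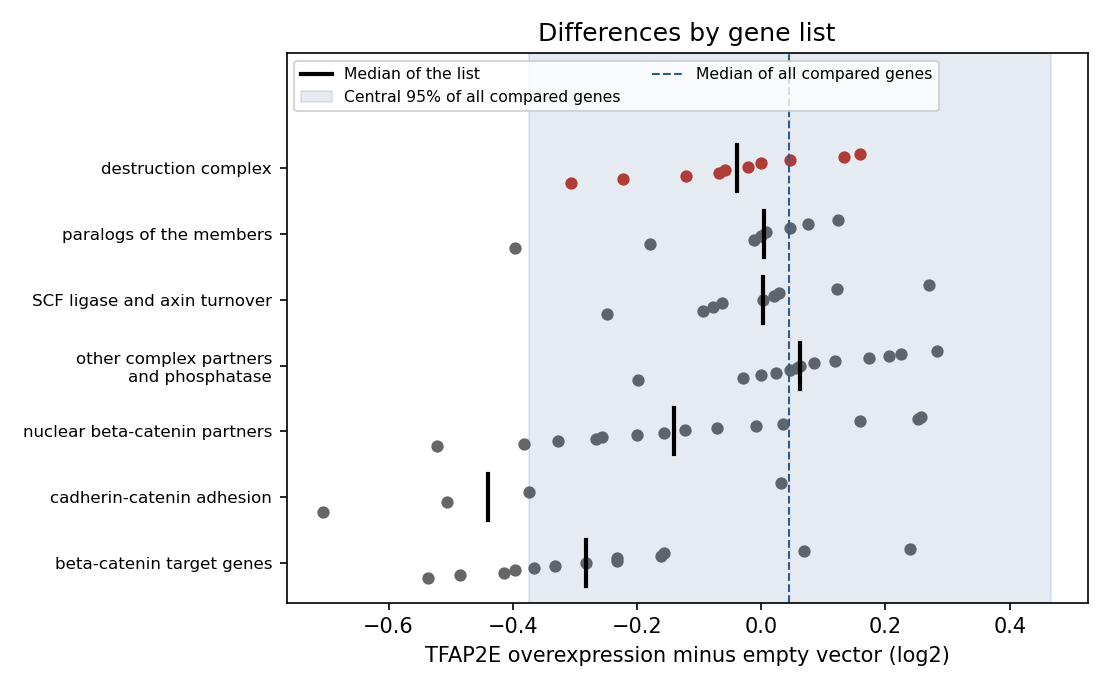
Difference between the arrays (TFAP2E overexpression minus empty vector, log2) of each compared gene in the destruction complex (red) and in the 6 wider lists (grey), with each list's median as a black bar, the central 95% of all compared genes shaded and their median dashed. The complex genes lie inside the shaded range of -0.37 to 0.47, and the medians of cadherin-catenin adhesion (4 genes), target genes and nuclear partners are -0.44, -0.28 and -0.14, the first becoming -0.17 under the filter at the 75th percentile.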

How the data were processed

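RNA of 2 SW480 cell samples, 1 per group, was measured on Affymetrix arrays. The authors deposited log2 values for each probe set, which the submitters' processing notes credit to RMA. Neither the RMA version nor the build is given in the sources used here. RMA as usually run brings arrays to nearly the same distribution, which would hide a change shared by all transcripts. Here the sorted arrays still differed by up to 0.158, and quantile normalization was tried again. Gene names came from the annotation of the platform. Of 33297 probe sets, 19460 had 1 gene symbol, 1754 several and 12083 none. Symbols were updated by Entrez identifier (19429 found) in RefSeq's table for GRCh38.p14, which also gave the order of genes. Of a gene's probe sets the one with the highest mean was used. Genes whose higher value lay below 5.55 were set aside as dim (6869 of 18417). With 1 array per group no test was possible. The number of arrays limits the precision, and fixed sizes of 2-fold and 1.5-fold were used as calls. Fewer cells expressing a gene and less of its RNA per cell cannot be told apart. All 10 members are named, with the 2 highest and 2 lowest compared genes of each wider list, those past 1.5-fold, and paralogs of members. Members and lists were chosen with earlier results of these data known. The comparison with the 500 genes nearest in level was added after the values were seen. The script was tested on simulated data. Alternatives were 3 scalings, 2 filters, averaging of a gene's probe sets, a 1.5-fold threshold, 20 neighbours a side and another motif. Python 3.11.15, pandas 2.3.3 and statsmodels 0.14.6 were used.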

Additional observations from a re-analysis of the deposited data

How the results depend on the processing

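No paired analysis was possible because there is only 1 array a group, and no array could be left out. The members' differences were read again under 3 other scalings, 2 other filters and averaging over a gene's probe sets, 56 values in all. Only the scalings could move them, since each member has 1 probe set and a filter changes no difference. The largest move was 0.052, under the SD of all compared genes (0.219), and no member reached 1.5-fold. CTNNB1 ran from -0.34 to -0.28, APC from -0.24 to -0.20, DVL1 from 0.11 to 0.18, GSK3B from 0.08 to 0.16 and DVL2 from -0.17 to -0.10. The values nearest to 0 have no settled sign, since GSK3A ran from -0.07 to 0.0041 and CSNK1A1 from -0.04 to 0.03. With centring on the median 5 members were higher and 5 lower, and the median of all genes was 0.07. With each of the other scalings 3 members were higher and 7 lower. With the filter at the 75th percentile 6 members were left. Of the 42 alternative list medians 41 moved by less than 0.219. The exception was cadherin-catenin adhesion at -0.17 under the filter at the 75th percentile, which drops CDH1 and CDH3. The medians of the paralogs (-0.02 to 0.03) and of the ligase list (-0.06 to 0.03) took either sign. The counts of genes past 2-fold, 10 higher and 13 lower, became 5 and 8 under the filter at the 75th percentile and 103 and 70 at 1.5-fold. With a spacer of 4 bases in the AP-2 motif 3 of the 8 member genes held a match in place of 4. They were GSK3A, DVL1 and APC, the last in its second window, while CTNNB1 and AXIN1 held none, so that which promoters hold a match depends on the spacer. Quantile normalization moved GSK3A to -0.07 and the median of all genes to 0.02. With 20 neighbours a side the median was 0.32 around GSK3B and 0.09 around CTNNB1. Signal over background is not given by RMA values, and the filter value stands in for it.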
